A study of Gallus gallus with 3 samples.

Results

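Clone 47, a chicken B cell clone carrying an SRSF1-3 knock-in, was set against untransfected control cells of the same DT40-ASF line, with 1 mRNA library on each side. A gene entered the comparison when it had at least 10 counts in either library, which 10161 of the 11877 genes in the count table did. The rule cut through the low end of the table without a gap, since 54 genes had a higher count of exactly 10 and 54 had a higher count of exactly 9. Of the 10161 genes, 10125 also had an FPKM value, a level corrected for transcript length as well as for library size. The labels give the genotype of clone 47 as an SRSF1-3 knock-in and that of the untransfected cells as control, and call both reconstituted cells. Clone 47 is 1 transfected and selected clone, while the control is an untransfected culture, so the knock-in, transfection and clonal history cannot be told apart. Another knock-in clone of the study, clone 41, was left out, apart from 1 alternative scaling over all 3 libraries. With 1 library on each side there is no replicate and no test. Ratios are given as sizes and directions, with exact binomial 95% intervals that cover counting error only.

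SRSF1 is the founding member of the SR proteins, splicing factors with RNA recognition motifs and a tail rich in arginine and serine. They bind exons, recruit the spliceosome to nearby splice sites, and their activity and location depend on phosphorylation of the tail by the SRPK and CLK kinases. SRSF1-3 is a splice isoform of the gene. DT40 is a bursal B cell lymphoma line that diversifies its immunoglobulin genes in culture. DT40-ASF cells are known to live on a human SRSF1 (ASF) copy after loss of their own gene, which is background that neither the labels nor the files give.

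SRSF1 was higher in clone 47. It had 5645 counts in clone 47 and 1402 in untransfected cells, or 132.6 CPM in clone 47 and 31.9 CPM in untransfected cells (CPM divides a count by the library's scaled total), a ratio of 4.16 (interval 3.92 to 4.42). The FPKM of SRSF1 was 195 in clone 47 and 43.6 in untransfected cells. Counts at gene level do not show which isoform of SRSF1 these reads came from, nor how reads of a human copy were assigned.

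The libraries were of similar depth, with 41760372 counts in clone 47 and 44868987 in untransfected cells, so a count of 0 allowed up to 0.0704 CPM in clone 47 and 0.0682 CPM in untransfected cells (3 counts). Genes of the mitochondrial genome took 4.42% of all counts in clone 47 and 3.33% in untransfected cells, and genes of cytosolic ribosomal proteins took 7.4% in clone 47 and 8.3% in untransfected cells. The 10 largest genes took 5.18% in clone 47 and 5.49% in untransfected cells. The cell line was checked against marker lists. B cell markers were present in both libraries, 19 of 19 with at least 10 counts in either one, with a summed level of 955 CPM in clone 47 and 1543 CPM in untransfected cells. The T and NK cell markers summed to 36.2 CPM in clone 47 and 42.4 CPM in untransfected cells, and 7 of the 12 in the table reached 10 counts. CD8A had 920 counts in clone 47 and 1011 in untransfected cells, CD3D had 232 counts in clone 47 and 268 in untransfected cells, and LCK had 113 counts in clone 47 and 12 in untransfected cells, while CD4 had 0 counts in clone 47 and 1 in untransfected cells. The myeloid markers summed to 143.5 CPM in clone 47 and 80.0 CPM in untransfected cells, nearly all of it CEBPB and MPO in clone 47 and CEBPB and TLR4 in untransfected cells. Of the 9 in the table, 4 reached 10 counts, and all 4 were at least 2-fold apart. CEBPB, MPO and CD14 were higher in clone 47 and TLR4 was lower, where 9.56% of all genes were higher and 7.60% lower. CSF1R, a defining receptor of macrophages, had 1 count in clone 47 and 0 in untransfected cells. The fibroblast and epithelial markers summed to 93.5 CPM in clone 47 and 163.6 CPM in untransfected cells, of which VIM was the largest. COL1A2 had 673 counts in clone 47 and 893 in untransfected cells, and COL3A1 and DCN were at 0 counts in both. Of the erythroid and thrombocyte markers only F13A1 reached 10 counts, and their sum was 4.204 CPM in clone 47 and 2.273 CPM in untransfected cells.

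At least 2-fold apart were 1743 genes (17.2%), of which 971 (9.56%) were higher and 772 (7.60%) lower in clone 47. At least 4-fold apart were 455 genes (4.48%), 274 higher (2.70%) and 181 lower (1.78%). The shares of 9.56% higher and 7.60% lower over all genes measured are the background for each gene group below. They depended on the level of the gene. Among genes under 0.5 CPM on average, 32.7% were higher and 24.2% lower, whereas between 100 and 1000 CPM 1.65% were higher and 3.18% lower. The calls that were higher had a median of 3.31 CPM in clone 47, the library in which they were higher, and 63.7% of them averaged under 5 CPM. The calls that were lower had a median of 5.11 CPM in untransfected cells, and 56% averaged under 5 CPM. Genes of at least 100 CPM on average were more often lower, with 43 higher and 86 lower. Among the 7947 genes that averaged at least 5 CPM, 692 (8.71%) were at least 2-fold apart, 352 (4.43%) higher and 340 (4.28%) lower. For a group whose members mostly averaged at least 5 CPM, 4.43% and 4.28% are the nearer background. The counting interval excluded a ratio of 1 for 948 of the 971 genes that were higher and 756 of the 772 that were lower. The same counts had picked these genes, so these numbers were largely set in advance and lend the calls no support. The median log2 ratio over all genes was 0.002 and its SD over genes was 0.89, or 0.63 among genes that averaged at least 5 CPM.

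**Figure D1:**
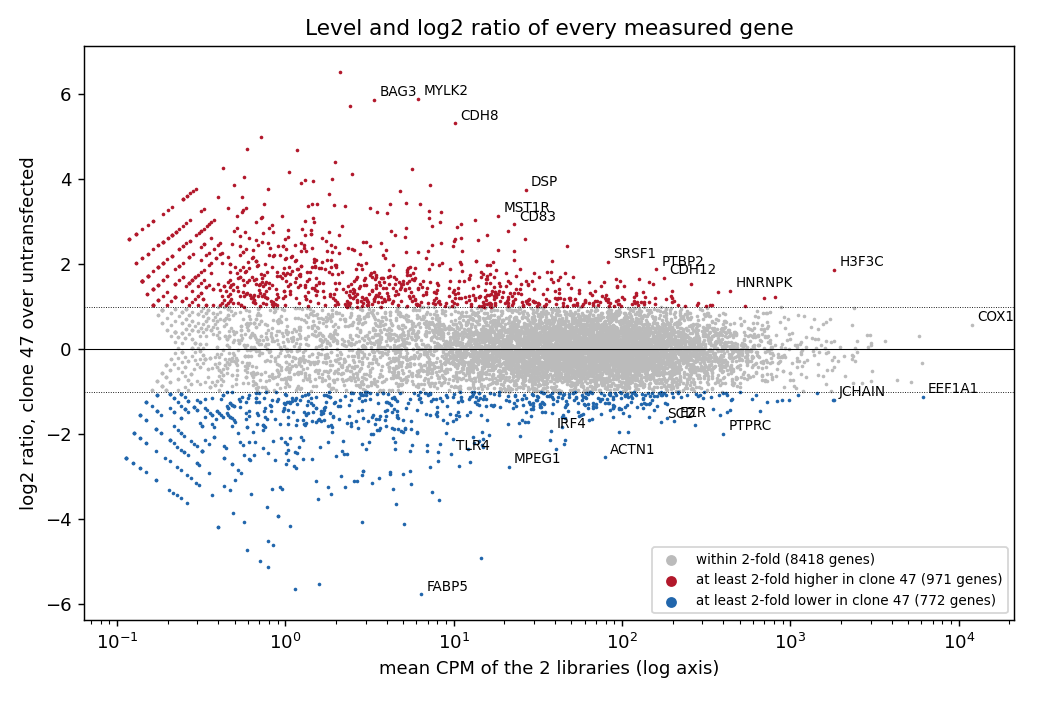
Each point is a gene, with its mean CPM in clone 47 and untransfected cells on a log axis and its log2 ratio of clone 47 over untransfected cells, 1 library each; dotted lines mark 2-fold. Red points are the 971 genes at least 2-fold higher and blue points the 772 genes at least 2-fold lower in clone 47, and both thin out toward high levels.

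**Figure D2:**
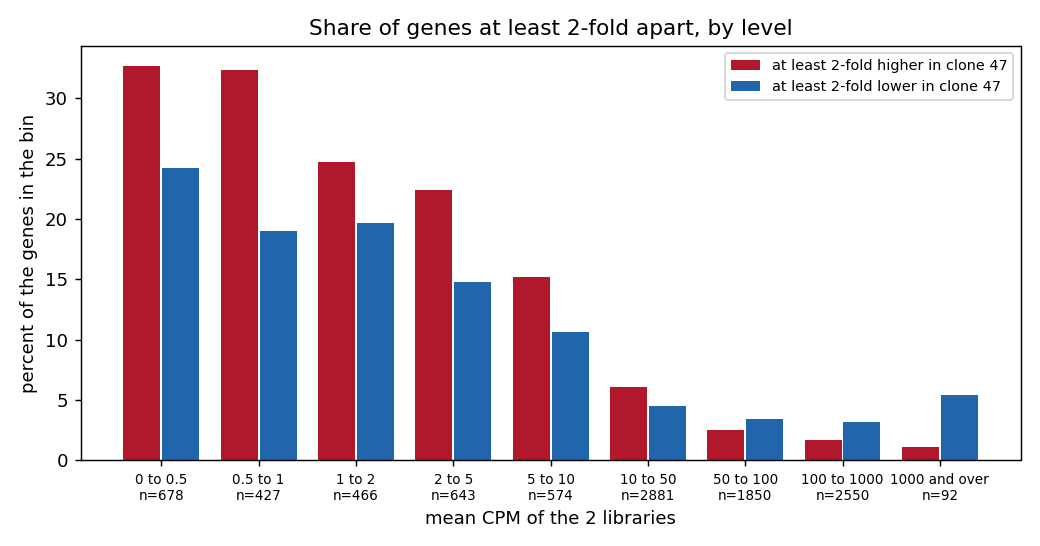
Bars give, for 9 ranges of mean CPM, the percent of genes that were 2-fold or more higher (red) or lower (blue) in clone 47 than in untransfected cells, 1 library each. Higher genes take the larger share below 50 CPM (32.7% against 24.2% under 0.5 CPM) and lower genes the larger share above it (1.65% higher and 3.18% lower between 100 and 1000 CPM).

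The genes that were higher by the largest factor, among those with at least 5 CPM in clone 47 and at least 2-fold higher by FPKM as well, included muscle, epithelial and neural genes with low counts in untransfected cells. MYLK2, the myosin light chain kinase of skeletal muscle, had 518 counts in clone 47 and 7 in untransfected cells, a ratio of 76.5 (interval 36.9 to 191). BAG3, a co-chaperone of HSP70, had 284 counts in clone 47 and 3 in untransfected cells. CDH8, a classical cadherin of neurons, had 847 counts in clone 47 and 20 in untransfected cells. DSP, desmoplakin, which ties desmosomes to intermediate filaments, had 2120 counts in clone 47 and 161 in untransfected cells, a ratio of 13.6 (interval 11.6 to 16.1). VIL1, villin, the actin bundler of intestinal microvilli, had 551 counts in clone 47 and 58 in untransfected cells. KLF17, a zinc finger transcription factor, had 380 counts in clone 47 and 28 in untransfected cells. The others were KLHL33, SPON2, MICALL1, FCN2, CFI and STEAP4, with log2 ratios between 3.24 (STEAP4) and 4.25 (KLHL33). FCN2 and CFI encode soluble proteins of the complement system, a ficolin and factor I. DSP, at 3.66 CPM, had the highest CPM of these 12 in untransfected cells.

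The genes that were lower by the largest factor by the same rule were led by FABP5, a fatty acid binding protein, with 8 counts in clone 47 and 557 in untransfected cells, a ratio of 0.0148 (interval 0.00638 to 0.0295). FSTL5, a secreted follistatin-like protein, had 22 counts in clone 47 and 423 in untransfected cells. TNS3, a tensin that links integrins to actin, had 12 counts in clone 47 and 238 in untransfected cells. Several of the others are receptors of leukocytes. P2RY10, a lysophospholipid receptor of lymphocytes, had 46 counts in clone 47 and 443 in untransfected cells. TNFRSF18, the costimulatory receptor GITR, had 27 counts in clone 47 and 261 in untransfected cells. GPR132, a G protein-coupled receptor of lymphocytes and macrophages, had 32 counts in clone 47 and 285 in untransfected cells. TLR2B, one of the chicken Toll-like receptors of type 2, had 26 counts in clone 47 and 224 in untransfected cells. The remaining ones were GTF2A1L, ZNF185, Mel1c, SNX24 and DPYSL3, with log2 ratios between -3.65 (GTF2A1L) and -2.93 (DPYSL3).

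Some genes were near the limit of detection in one library only. With at most 3 counts in untransfected cells and at least 1 CPM in clone 47 there were 13 genes, of which 3 had no count in untransfected cells. PCLO, piccolo, a scaffold of presynaptic terminals, had 179 counts in clone 47 and 0 in untransfected cells, at least 61.7-fold higher against a floor of 3 counts in the untransfected library. SLC5A7, the choline transporter of cholinergic neurons, had 61 counts in clone 47 and 0 in untransfected cells, at least 21.01-fold higher, and CCDC102A had 50 counts in clone 47 and 0 in untransfected cells, at least 17.2-fold higher. RLN1, a relaxin hormone, had 204 counts in clone 47 and 2 in untransfected cells. BAG3, IGSF1, AGPAT1L and SLC39A8 completed the 8 with the highest CPM in clone 47. In the other direction there were also 13 genes, of which 4 had no count in clone 47. KCTD1 had 0 counts in clone 47 and 100 in untransfected cells, at least 32.3-fold lower, and RHOBTB2, an atypical small GTPase, had 0 counts in clone 47 and 69 in untransfected cells, at least 22.3-fold lower. NUDT14, a hydrolase of UDP-glucose, had 1 count in clone 47 and 138 in untransfected cells. CD200, a surface protein of lymphocytes that restrains myeloid cells, had 1 count in clone 47 and 68 in untransfected cells. OPN5L1, KIAA1462, COMTD1 and PDLIM1 had 1 to 3 counts in clone 47 and 73 to 90 in untransfected cells.

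The largest differences in CPM were in RNAs of mitochondria, histone H3.3 and translation. COX1, a mitochondrially encoded subunit of cytochrome c oxidase, had 14360 CPM in clone 47 and 9648 CPM in untransfected cells, within 2-fold. H3F3C, a histone H3.3 gene, had 121857 counts in clone 47 and 34413 in untransfected cells, a ratio of 3.66 (interval 3.62 to 3.70). H3F3B, the other H3.3 gene of the table, had 9688 counts in clone 47 and 5461 in untransfected cells, a ratio of 1.83, and reads of near-identical copies may have been divided between these genes. CNBP, a nucleic acid binding protein with zinc knuckles, had 3173 CPM in clone 47 and 1628 CPM in untransfected cells, and the mitochondrial genes COX3 and ND1 were the next. On the other side, EEF1A1, the elongation factor that brings charged tRNAs to the ribosome, had 163199 counts in clone 47 and 367599 in untransfected cells, a ratio of 0.459 (interval 0.456 to 0.462). PABPC1, the cytoplasmic poly(A) binding protein, had 3889 CPM in clone 47 and 6593 CPM in untransfected cells. RPL4 and RPS3A, of the large and the small ribosomal subunit, and HSPA8, the constitutive HSP70, were between 0.578 (HSPA8) and 0.606 (RPL4) times the untransfected level.

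B cell signalling and identity genes were lower more often than all genes measured. Of the 41 measured genes of B cell receptor signalling, 11 were lower (26.8%) and 1 was higher, and the median log2 ratio was -0.59 against 0.002 over all genes. PTPRC, the leukocyte common antigen CD45, a phosphatase that keeps the SRC kinases of the receptor ready, had 6808 counts in clone 47 and 27837 in untransfected cells, a ratio of 0.253 (interval 0.246 to 0.260). LYN, one of those SRC kinases, had 2783 counts in clone 47 and 5847 in untransfected cells. BTK, the kinase that activates phospholipase C after receptor engagement, had 3409 counts in clone 47 and 8399 in untransfected cells. BLNK, the adaptor that brings BTK to its substrate, had 3075 counts in clone 47 and 6756 in untransfected cells. PIK3CD, the leukocyte catalytic subunit of PI 3-kinase, had 2261 counts in clone 47 and 6596 in untransfected cells. HVCN1, a proton channel of B cells, and ITPR3, a calcium release channel, had ratios of 0.427 and 0.453. LCP2, BLK, BCAR3 and NFATC1 completed the lower genes at 2.00 CPM or less in untransfected cells. SYK and CD79B were within 2-fold, at 0.800 and 0.741 times the untransfected level. BCL10, which carries the signal onward to NF-kB, was the gene that was higher, with 4721 counts in clone 47 and 2175 in untransfected cells. In bulk libraries, fewer cells of a type and less RNA per cell cannot be told apart.

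The transcription factors of the B lineage divided. Of 36 measured, 7 were lower and 3 higher, with a median log2 ratio of -0.29. IRF4, which with PRDM1 (BLIMP1) drives plasma cell differentiation, had 671 counts in clone 47 and 2649 in untransfected cells, and PRDM1 had 101 counts in clone 47 and 338 in untransfected cells. BACH2, a repressor of PRDM1 that holds cells at the B cell stage, was lower as well, with 360 counts in clone 47 and 818 in untransfected cells. POU2AF1, the coactivator OBF-1 of immunoglobulin promoters, had 3335 counts in clone 47 and 7232 in untransfected cells. LMO2, ID1 and ETS1 had ratios between 0.303 (ID1) and 0.465 (ETS1). RUNX1, a regulator of early haematopoiesis, was higher, with 5912 counts in clone 47 and 1952 in untransfected cells, a ratio of 3.13 (interval 2.973 to 3.296), as was RUNX3, with 522 counts in clone 47 and 251 in untransfected cells. TCF7 had 79 counts in clone 47 and 35 in untransfected cells. PAX5, EBF1 and SPI1, master regulators of the lineage, were within 2-fold, at 1.05, 1.22 and 1.40 times the untransfected level. Among the 6 plasma cell markers 3 were lower. JCHAIN, the joining chain of secreted immunoglobulin, had 47039 counts in clone 47 and 110424 in untransfected cells, a ratio of 0.440, whereas XBP1, the secretory transcription factor, had a ratio of 1.08.

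Cytokine, TNF family and pattern recognition receptors were apart in both directions, many of them at low counts. Of the 30 measured TNF ligands and receptors 7 were lower and 1 higher (median log2 ratio -0.49). TNFRSF13B (TACI), a receptor for the B cell survival factor BAFF, had 528 counts in clone 47 and 1251 in untransfected cells, and TNFSF13B, BAFF itself, had 459 counts in clone 47 and 965 in untransfected cells. FAS, the death receptor, had 50 counts in clone 47 and 158 in untransfected cells. TNFRSF6B, a decoy receptor for FAS ligand, was higher, with 106 counts in clone 47 and 5 in untransfected cells. Of the 26 Toll-like receptor genes and adaptors 7 were lower and 4 higher, and 1 of the 4, NOD1, was on the opposite side by FPKM (1.51 as a log2 ratio of counts and -0.27 on the log2(FPKM + 0.1) scale). TLR4, the lipopolysaccharide receptor, had 124 counts in clone 47 and 715 in untransfected cells. TLR2A, which senses bacterial lipopeptides, had 138 counts in clone 47 and 387 in untransfected cells. TLR7, a receptor for single-stranded RNA, had 220 counts in clone 47 and 580 in untransfected cells, and its chaperone UNC93B1 had 287 counts in clone 47 and 676 in untransfected cells. The chicken receptor for CpG DNA, TLR21, was higher, with 1017 counts in clone 47 and 497 in untransfected cells, and so was the kinase adaptor IRAK2, with 10744 counts in clone 47 and 4898 in untransfected cells. Of 34 cytokines, chemokines and their receptors 7 were higher and 10 lower, and 11 of the 34 averaged at least 5 CPM, of which 1 was higher (IL22RA2) and 1 lower (TGFB2).

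Among 21 NF-kB subunits, regulators and targets, 5 were higher and 2 lower, with a median log2 ratio of 0.32. CD83, a surface protein of activated B cells and dendritic cells, had 1724 counts in clone 47 and 231 in untransfected cells, a ratio of 7.71 (interval 6.72 to 8.89). The inhibitors NFKBIE and TNFAIP3 (A20), themselves NF-kB targets, were higher, NFKBIE with 1093 counts in clone 47 and 455 in untransfected cells and TNFAIP3 with 722 counts in clone 47 and 333 in untransfected cells. SDC4, a heparan sulfate proteoglycan, had 1862 counts in clone 47 and 718 in untransfected cells, and the chemokine CCL20 had 98 counts in clone 47 and 25 in untransfected cells. PTGS2 and IKBKE were the lower members. The interferon response genes did not share a direction, with 6 of 28 higher (21.4%) and 4 lower (14.3%), against 9.56% and 7.60% of all genes. Only 12 of the 28 averaged at least 5 CPM, of which 1 was higher (IFITM5) and 1 lower (CTSS). IFITM5, an interferon-induced transmembrane family member known from bone, had 628 counts in clone 47 and 80 in untransfected cells. DTX3L, a ubiquitin ligase that pairs with PARP9, had 282 counts in clone 47 and 56 in untransfected cells, and the RNA sensor DHX58 (LGP2) had 100 counts in clone 47 and 11 in untransfected cells. CTSS, the lysosomal protease that trims the class II invariant chain, had 215 counts in clone 47 and 1098 in untransfected cells, and the antiviral zinc finger protein ZC3HAV1 had 33 counts in clone 47 and 159 in untransfected cells.

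**Figure D3:**
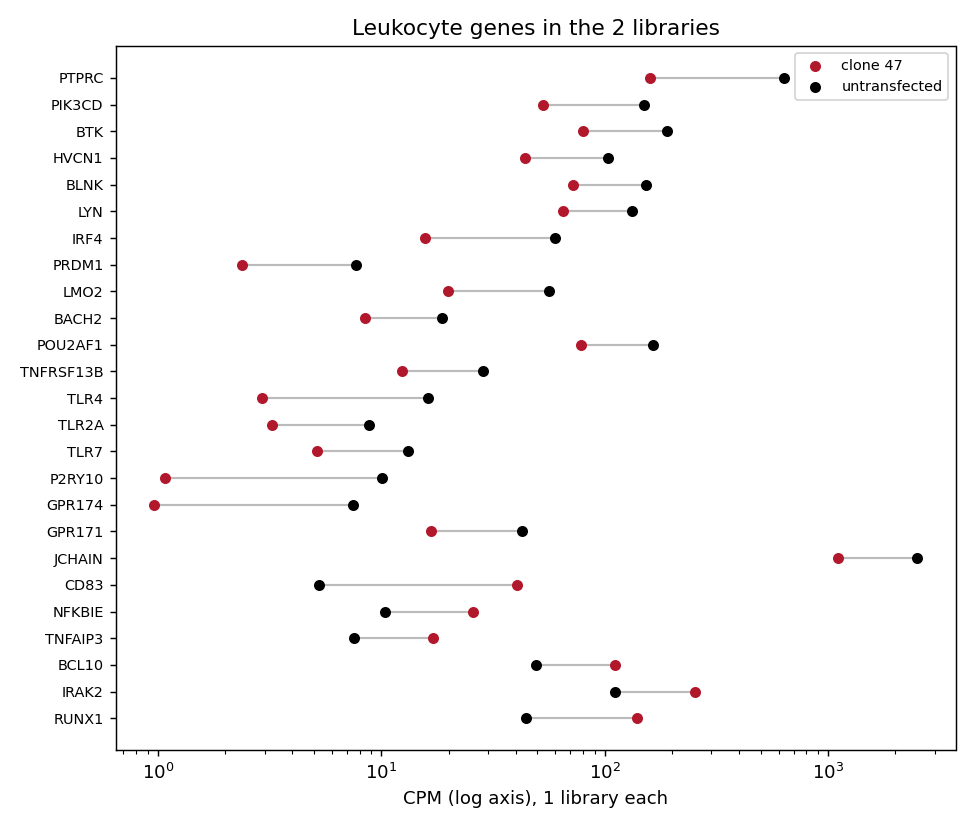
For named leukocyte genes, the CPM of each gene is shown in clone 47 (red) and untransfected cells (black) on a log axis, 1 library each, joined by a grey line. Most of the receptor signalling, lineage and Toll-like receptor genes picked here have the red point on the left (PTPRC at 159.9 CPM in clone 47 and 632.6 CPM in untransfected cells). BCL10, IRAK2 and RUNX1, of the same lists, have it on the right, as do CD83, NFKBIE and TNFAIP3. Some members that were higher or within 2-fold, such as TLR21, SPI1, EBF1 and PAX5, are not shown.

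Among G protein-coupled receptors 15 of 71 were higher (21.1%) and 20 lower (28.2%), against 9.56% and 7.60% of all genes. Most were weakly expressed, a level at which such calls were frequent. Among the 31 that averaged at least 5 CPM, 4 were higher and 6 lower, where 4.43% of all genes were higher and 4.28% lower. Lower were GPR174, a lysophosphatidylserine receptor of lymphocytes, with 41 counts in clone 47 and 327 in untransfected cells, GPR171 with 713 counts in clone 47 and 1868 in untransfected cells, and P2RY8, a receptor that confines B cells to germinal centres in mammals, with 1726 counts in clone 47 and 3703 in untransfected cells. Higher were PTGER3, a prostaglandin E2 receptor, with 1156 counts in clone 47 and 184 in untransfected cells, the serotonin receptor HTR4, with 1485 counts in clone 47 and 711 in untransfected cells, and CELSR3, an adhesion receptor with cadherin repeats, with 4781 counts in clone 47 and 2294 in untransfected cells. By FPKM the log2 ratio of HTR4 was 0.49, under 2-fold. Of the 38 G protein subunits and their RGS regulators, 4 were higher and 4 lower, and all 4 that were higher averaged at least 5 CPM. GNG12, a gamma subunit, had 541 counts in clone 47 and 64 in untransfected cells, RGS8, a regulator known from neurons, had 557 counts in clone 47 and 75 in untransfected cells, and GNAO1 and GNG5 had ratios of 2.26 and 2.14.

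Genes of immunoglobulin diversification, homologous recombination and replication were lower or within 2-fold. Of 35 recombination and diversification genes 5 were lower and 0 higher (median log2 ratio -0.39). RAD54B, a DNA translocase of homologous recombination, had 1033 counts in clone 47 and 2316 in untransfected cells. CHEK1, the checkpoint kinase of stalled forks, had 1682 counts in clone 47 and 4171 in untransfected cells. RAG2, of the V(D)J recombinase, had 37 counts in clone 47 and 82 in untransfected cells. UNG, which removes uracil from DNA, was within 2-fold, at 0.571 times the untransfected level. Of the 53 genes of the replication machinery 6 were lower and 0 higher, 42 had a log2 ratio under 0, and the median was -0.35. The 6 were the helicase subunits MCM5 and MCM6, the helicase loader CDC6, the polymerase subunits POLD2 and POLE2, and the clamp loader subunit RFC2, with ratios between 0.442 (CDC6) and 0.496 (MCM5). End joining genes were all within 2-fold, 16 of 16.

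The cell cycle lists were close to balance. Of 58 cyclins, CDKs and E2F genes 2 were higher and 2 lower, and of 68 mitotic genes 1 was higher and 2 lower. CCNB3, cyclin B3, had 15962 counts in clone 47 and 7978 in untransfected cells, and PTTG1, securin, had 3435 counts in clone 47 and 1338 in untransfected cells. PLK1, a mitotic kinase, had 4689 counts in clone 47 and 9816 in untransfected cells. CENPA, the centromeric histone H3, had 26 counts in clone 47 and 130 in untransfected cells. In the p53 network 4 of 26 were higher and 2 lower. GADD45A, a stress gene whose RNA is a known target of nonsense-mediated decay in other species, had 5839 counts in clone 47 and 2164 in untransfected cells. SESN2, a sestrin, had 11543 counts in clone 47 and 5523 in untransfected cells by count, but its log2 ratio by FPKM was 0.16.

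Over 52 nucleotide genes 5 were lower and 2 higher, with a median log2 ratio of -0.10. ATIC, which closes the purine ring, had 3863 counts in clone 47 and 12255 in untransfected cells, a ratio of 0.326 (interval 0.314 to 0.338). ADSL, adenylosuccinate lyase, had 4561 counts in clone 47 and 11448 in untransfected cells. PRPS1, which makes the ribose donor of the pathway, had 18381 counts in clone 47 and 44562 in untransfected cells. ADSSL1, adenylosuccinate synthase, had 1476 counts in clone 47 and 3794 in untransfected cells. GART, PAICS and GMPS, other enzymes of the route, were within 2-fold and above the untransfected level, at 1.26, 1.36 and 1.14 times, and PPAT was at 0.825 times. UCKL1, a uridine kinase-like protein, was the higher one above 5 CPM, with 3375 counts in clone 47 and 1391 in untransfected cells.

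Every gene at least 2-fold apart was higher in the lists of SR proteins, their kinases, hnRNPs, exon junction and nonsense-mediated decay genes and spliceosome core. The medians lay between -0.12 and 0.45. By FPKM SRSF5 was an exception, with 5.63 FPKM in clone 47 and 14.4 FPKM in untransfected cells, against 944 and 1637 counts in the same libraries, within 2-fold. Shares that were higher were 8.33% for SR proteins, 10.3% for hnRNPs and 12.8% for the spliceosome core, against 9.56% of all genes. They were 18.8% for the exon junction and decay list and 33.3% for the 9 kinases and import factors. Over all genes 7.60% were lower. Most members averaged at least 5 CPM, a level at which 4.43% of all genes were higher and 4.28% lower. At that level 1 of 12 SR proteins, 4 of 35 hnRNPs and 5 of 39 spliceosome core genes were higher. So were 3 of 16 exon junction and decay genes and 3 of 9 kinases and import factors, and 0 were lower in each list. Among the 12 SR protein genes SRSF1 was the only one at least 2-fold apart, 8 had a log2 ratio above 0, and the median was 0.45. TRA2A, which promotes exon inclusion, had 27539 counts in clone 47 and 18084 in untransfected cells, whereas SRSF3 had 10106 counts in clone 47 and 17822 in untransfected cells. Of the 9 SR protein kinases and import factors, CLK1, CLK3 and CLK4 were higher, with ratios between 2.04 (CLK4) and 2.15 (CLK1). CLK2, the other member of the family, was at 1.601 times. The cytoplasmic kinases SRPK1 and SRPK2 were at 0.586 and 0.596 times the untransfected level, within 2-fold. Of 39 hnRNPs and splicing regulators 4 were higher and 0 lower, with a median log2 ratio of -0.09. PTBP2, the PTB paralog that holds neuronal exons in check, had 10619 counts in clone 47 and 2973 in untransfected cells, a ratio of 3.69 (interval 3.54 to 3.85). PTBP1 was at 1.32 times. HNRNPK had 26889 counts in clone 47 and 10691 in untransfected cells, HNRNPH3 had 48490 counts in clone 47 and 21375 in untransfected cells, and HNRNPLL, known in mammals for the exon choice of CD45 in lymphocytes, had 2550 counts in clone 47 and 1139 in untransfected cells.

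The exon junction and spliceosome lists had the same form. RNPS1, a peripheral component of the exon junction complex, had 22843 counts in clone 47 and 9223 in untransfected cells, and MAGOH2, a core component, had 7129 counts in clone 47 and 3419 in untransfected cells. UPF1, the helicase of nonsense-mediated decay, had 17892 counts in clone 47 and 29878 in untransfected cells, within 2-fold. With GADD45A, which is listed as a target of the decay and not as a component, 3 of the 16 genes of the exon junction and decay list were higher and 0 lower. Of the 39 spliceosome core genes 5 were higher and 0 lower: the small ribonucleoprotein subunits SNRNP40, SNRPA1 and SNRNP35, the splice site factor U2AF1 and the activator PRPF38B, with ratios between 2.01 (SNRNP35) and 2.36 (SNRNP40). RBM14, an RNA-binding coactivator, had 6452 counts in clone 47 and 2388 in untransfected cells. Outside these lists, PPIH, a cyclophilin of the spliceosome, was lower, with 927 counts in clone 47 and 2889 in untransfected cells.

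**Figure D4:**
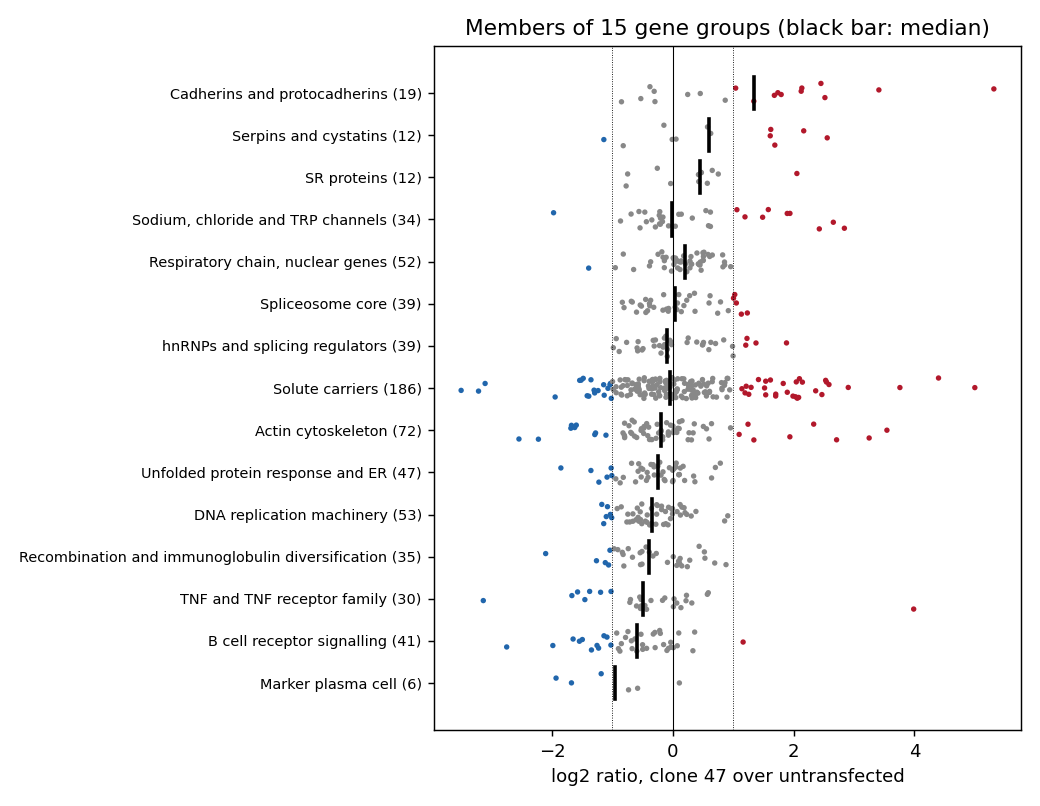
Each point is a measured gene of the group named at the left (number of genes in brackets), placed by its log2 ratio of clone 47 over untransfected cells, 1 library each. Genes at least 2-fold higher in clone 47 are red and those at least 2-fold lower are blue, dotted lines mark 2-fold, and black bars are medians, from 1.34 for cadherins to -0.96 for plasma cell markers.

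Nuclear transport and translation genes were mostly within 2-fold, with a few abundant genes lower. Of 48 nuclear pore and transport genes 4 were lower and 1 higher, and 37 had a log2 ratio under 0. XPO5, the exporter of microRNA precursors, had 15458 counts in clone 47 and 35846 in untransfected cells, and the importin IPO7 had 30401 counts in clone 47 and 66084 in untransfected cells. KPNA6, another importin, was higher, with 7560 counts in clone 47 and 3594 in untransfected cells. Of 67 cytosolic ribosomal protein genes 3 were lower and 0 higher, with a median log2 ratio of -0.10. RPL3 had 45939 counts in clone 47 and 109347 in untransfected cells, and RPL8 and RPS29 had ratios of 0.492 and 0.452. Of 48 translation factors 3 were lower and 2 higher. EIF3H, a subunit of the initiation factor eIF3, had 5176 counts in clone 47 and 18468 in untransfected cells, a ratio of 0.290 (interval 0.281 to 0.299). EIF2AK3 (PERK), the kinase that lowers initiation under ER stress, had 2749 counts in clone 47 and 5716 in untransfected cells. EIF1B had 9294 counts in clone 47 and 4129 in untransfected cells. The third lower factor was EEF1A1, which had one of the largest differences in CPM of all genes. Summed over the translation factors, with EEF1A1 among them, the level was 27410 CPM in clone 47 and 35010 CPM in untransfected cells. Their median log2 ratio was -0.02, with 24 genes above 0 and 24 below, so the sum does not describe the typical factor.

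In the heat shock list 3 of 38 genes were lower (7.89%), near the 7.60% of all genes, and 2 were higher, BAG3 and HSF4. The median log2 ratio of the list was -0.11. At a mean of at least 5 CPM, 3 of 35 were lower and 0 higher. At that level 4.28% of all genes were lower and 4.43% higher. Of 37 DNAJ co-chaperones 3 were higher and 0 lower. The HSP90 genes of the cytosol were lower, HSP90AA1 with 21271 counts in clone 47 and 51370 in untransfected cells and HSP90AB1 with 10234 counts in clone 47 and 22360 in untransfected cells. Of 47 genes of the unfolded protein response and the ER 6 were lower and 0 higher, with a median log2 ratio of -0.25. The disulfide isomerases PDIA4 and PDIA6 and the oxidase ERO1L that recharges them had ratios of 0.493, 0.471 and 0.391, and DERL3, of ER-associated degradation, had 544 counts in clone 47 and 1314 in untransfected cells. HSPA5 (BiP), the main HSP70 of the ER, was at 0.697 times the untransfected level, within 2-fold.

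Over the 58 fatty acid and lipid genes 5 were higher (8.62%) and 6 lower (10.3%), against 9.56% and 7.60% of all genes. At a mean of at least 5 CPM, 1 of 45 was higher and 5 were lower. At that level 4.43% of all genes were higher and 4.28% lower. ACLY, which supplies cytosolic acetyl-CoA, had 14081 counts in clone 47 and 29338 in untransfected cells. SCD, the desaturase of stearate, had 3423 counts in clone 47 and 11550 in untransfected cells, a ratio of 0.306 (interval 0.295 to 0.318). SREBF1, the transcription factor of lipid synthesis, had 2107 counts in clone 47 and 5217 in untransfected cells, and the lipid receptor PPARG had 1093 counts in clone 47 and 2880 in untransfected cells. CPT1A, which commits fatty acids to mitochondrial oxidation, had 11943 counts in clone 47 and 5572 in untransfected cells. GPD1, a glycerol phosphate dehydrogenase, had 118 counts in clone 47 and 6 in untransfected cells. ACACB, an acetyl-CoA carboxylase, was higher too, with 130 counts in clone 47 and 30 in untransfected cells. Of 29 cholesterol genes 3 were lower (10.3%, against 7.60% of all genes) and 0 higher. At a mean of at least 5 CPM, 1 of 27 was lower, where 4.28% of all genes were lower. In the whole list 24 had a log2 ratio under 0, with a median of -0.41.

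Of 37 glycolysis genes 6 were lower and 1 higher, with a median of -0.01. ALDOC, an aldolase, had 14925 counts in clone 47 and 42451 in untransfected cells, LDHA, a lactate dehydrogenase subunit, had 568 counts in clone 47 and 1481 in untransfected cells, and SLC2A1, the glucose transporter GLUT1, had 962 counts in clone 47 and 2438 in untransfected cells. Respiratory chain genes differed by less. Of 52 nuclear ones 0 were higher and 1 was lower, ATP5S, but 39 had a log2 ratio above 0, and the median was 0.20. Of the 13 protein genes of the mitochondrial genome none was at least 2-fold apart, 12 had a log2 ratio above 0, and the median was 0.27. Their sum was 43360 CPM in clone 47 and 33920 CPM in untransfected cells. Of 70 lysosome and autophagy genes 10 were lower and 3 higher. Beside CTSS, the lower ones included the hydrolases CTSA, with 9489 counts in clone 47 and 27103 in untransfected cells, SMPD1 (acid sphingomyelinase), with 1356 counts in clone 47 and 4405 in untransfected cells, and GUSB and GALC. CTSK, cathepsin K, was higher, with 138 counts in clone 47 and 52 in untransfected cells.

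Actin cytoskeleton genes were apart in both directions. Of 72 genes 9 were lower and 8 higher, among the 60 that averaged at least 5 CPM 7 were lower and 4 higher, and the summed level was 8502 CPM in clone 47 and 11510 CPM in untransfected cells. ACTN1, the non-muscle alpha-actinin that crosslinks filaments, had 983 counts in clone 47 and 5937 in untransfected cells, a ratio of 0.171 (interval 0.160 to 0.183). EZR and MSN, ezrin and moesin, which tie the membrane to actin, were lower, EZR with 4129 counts in clone 47 and 13737 in untransfected cells and MSN with 3440 counts in clone 47 and 8698 in untransfected cells. SPECC1, a cytospin that binds actin, had 2.889 CPM in clone 47 and 13.66 CPM in untransfected cells. The filament binders CNN3 (calponin 3) and TPM4 (tropomyosin 4) had 958 and 1875 counts in clone 47, against 3051 and 5863 in untransfected cells. SVIL, supervillin, was higher, with 1310 counts in clone 47 and 267 in untransfected cells, as were VIL1 and TAGLN, transgelin of smooth muscle, with 106 counts in clone 47 and 15 in untransfected cells. CDC42, the GTPase of cell polarity, had 11812 counts in clone 47 and 27445 in untransfected cells. ARHGAP24, a RAC-directed regulator, had 550 counts in clone 47 and 1875 in untransfected cells.

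Cadherins, the calcium-dependent adhesion proteins of cell contacts, were mostly on the higher side. Of 31 cadherins and protocadherins that the table lists, 19 were measured, of which 11 were higher (57.9%) and 0 lower, and their median log2 ratio was 1.34 by counts and 0.69 by log2(FPKM + 0.1). Most were weakly expressed, and of the 5 that averaged at least 5 CPM 2 were higher, CDH12 and CDH8. CDH12, a cadherin known from brain, had 11475 counts in clone 47 and 3694 in untransfected cells, a ratio of 3.21 (interval 3.09 to 3.33). CDH3, P-cadherin, had 213 counts in clone 47 and 62 in untransfected cells. CDH2, N-cadherin, had 70 counts in clone 47 and 15 in untransfected cells, and CDH1, E-cadherin, had 45 counts in clone 47 and 9 in untransfected cells. PCDHGC3, PCDHA11 and PCDH1, protocadherins, had log2 ratios between 2.45 (PCDH1) and 3.41 (PCDHGC3). Of 32 desmosome, adherens and tight junction genes 7 were higher and 3 lower. Beside DSP, PANX3, a pannexin channel, was the other higher gene above 5 CPM, with 2374 counts in clone 47 and 694 in untransfected cells. Among laminins and matrix glycoproteins 8 of 21 were higher and 7 lower. LAMB2 had 1563 counts in clone 47 and 234 in untransfected cells, whereas LAMA5 had 529 counts in clone 47 and 1421 in untransfected cells. Of 12 serpins and cystatins 5 were higher and 1 lower. CSTA, an intracellular inhibitor of cysteine proteases, had 2074 counts in clone 47 and 663 in untransfected cells, SERPINF2, the plasmin inhibitor, had 727 counts in clone 47 and 126 in untransfected cells, and CST3, cystatin C, was the lower one, with 1908 counts in clone 47 and 4349 in untransfected cells.

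Channels and transporters were apart more often than the average gene, at levels where such calls were frequent. Of 34 sodium, chloride and TRP channel genes 9 were higher and 1 lower, and 2 of the 9 averaged at least 5 CPM. SCN11A, a sodium channel of sensory neurons, had 1657 counts in clone 47 and 459 in untransfected cells, and SCN4B, an auxiliary subunit, had 468 counts in clone 47 and 210 in untransfected cells. Calcium channels were higher in 3 of 11 genes and lower in 1, with CACNA2D3, an auxiliary subunit, at 2670 counts in clone 47 and 894 in untransfected cells and CACNA1S, the pore of the skeletal muscle channel, at 363 counts in clone 47 and 111 in untransfected cells. Of 24 ligand-gated channels 8 were higher and 3 lower. CHRNB2, a subunit of nicotinic receptors, had 1169 counts in clone 47 and 564 in untransfected cells, and GLRB, the beta subunit of glycine receptors, had 479 counts in clone 47 and 1643 in untransfected cells. Potassium channels leaned the other way, with 9 of 32 lower and 5 higher. KCNMB1 and KCNMA1, the beta and alpha subunits of the large conductance calcium-activated channel, were both lower, KCNMB1 with 117 counts in clone 47 and 823 in untransfected cells and KCNMA1 with 569 counts in clone 47 and 1411 in untransfected cells.

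Of 186 solute carriers 30 were higher (16.1%) and 19 lower (10.2%). Among the 135 that averaged at least 5 CPM 9 were higher and 11 lower. SLCO2A1, a prostaglandin transporter, had 162 counts in clone 47 and 6 in untransfected cells. SLC13A5, the plasma membrane citrate transporter, had 9616 counts in clone 47 and 3418 in untransfected cells, and SLC5A9, a sodium-dependent mannose transporter, had 2648 counts in clone 47 and 644 in untransfected cells. SLC6A13, a GABA transporter, had 742 counts in clone 47 and 126 in untransfected cells, and SLC5A3, the myo-inositol transporter, had 1078 counts in clone 47 and 279 in untransfected cells. Lower were SLC19A1, the reduced folate carrier, with 3143 counts in clone 47 and 8510 in untransfected cells, SLC39A10, a zinc importer, with 689 counts in clone 47 and 1904 in untransfected cells, and SLC6A6, the taurine transporter, with 1405 counts in clone 47 and 3210 in untransfected cells.

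Growth factors and their receptors were higher in 12 of 45 genes and lower in 8, and among the 20 that averaged at least 5 CPM 5 were higher and 1 lower. MST1R, the receptor tyrosine kinase RON, had 1402 counts in clone 47 and 163 in untransfected cells, a ratio of 8.89 (interval 7.55 to 10.5), and its ligand MST1 had 191 counts in clone 47 and 62 in untransfected cells. HGF, the ligand of the related receptor MET, was lower, with 93 counts in clone 47 and 510 in untransfected cells. FGF9, a fibroblast growth factor, had 361 counts in clone 47 and 97 in untransfected cells, and ERBB2, a receptor of the EGF receptor family, had 493 counts in clone 47 and 193 in untransfected cells. Of 24 semaphorins, plexins, slits and netrins 7 were higher and 4 lower. SEMA5A had 930 counts in clone 47 and 228 in untransfected cells, while PLXNC1, a semaphorin receptor of leukocytes, had 1471 counts in clone 47 and 3965 in untransfected cells, and the netrin receptor UNC5B had 521 counts in clone 47 and 1706 in untransfected cells.

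Homeobox genes were higher in 8 of 25 and lower in 2, and of the 16 that averaged at least 5 CPM 3 were higher and 0 lower. SATB1, a chromatin organiser, had 2229 counts in clone 47 and 860 in untransfected cells. The orphan nuclear receptors NR2F1 and NR2F2 were higher, NR2F1 with 1178 counts in clone 47 and 410 in untransfected cells and NR2F2 with 476 counts in clone 47 and 110 in untransfected cells. ZBTB18, a repressor known from cortical neurons, had 9242 counts in clone 47 and 3210 in untransfected cells. TBX6, a T-box factor of somites, was lower, with 826 counts in clone 47 and 3041 in untransfected cells. Of 115 chromatin remodellers and histone modifiers 4 were higher (3.48%) and 6 lower (5.22%). Both shares were under those of all genes, 9.56% and 7.60%, which include many weakly expressed genes. At a mean of at least 5 CPM, 3 of 112 of these chromatin genes were higher and 6 lower. At that level 4.43% of all genes were higher and 4.28% lower. Of the 6 lower genes, 3 were subunits of one complex. SMARCC1, SMARCD2 and SMARCE1 of the SWI/SNF (BAF) remodeller had 10199, 3064 and 8052 counts in clone 47, against 28225, 9550 and 22219 counts in untransfected cells, with ratios of 0.373, 0.332 and 0.374. SMARCB1 and SMARCD3, other subunits, were at 1.24 and 1.07 times the untransfected level. The complex was not one of the gene lists, so no share of its measured subunits is given.

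Genes were also ordered by their neighbours in the RefSeq annotation of GRCg7b, in which 9448 (93%) were found by symbol. Of 29 chromosomes with at least 30 genes that averaged at least 5 CPM, a limit chosen after seeing the data, the one that carries MTOR stood lowest. Its 119 such genes had a median log2 ratio of -0.48 by counts and -0.47 by FPKM, 103 of them (86.6%) were under 0, and 11 were at least 2-fold lower against 1 higher, CDA. Over all 166 measured genes of that chromosome, whatever their level, 17 were lower and 7 higher. The next lowest chromosome, which carries EEF2, had a median of -0.18 over 139 genes, and the highest, which carries SFPQ, had a median of 0.27 over 128 genes. Among windows of 25 neighbouring genes that averaged at least 5 CPM, the lowest median was -0.80, from AURKAIP1 to EXOSC10 on the chromosome of MTOR. The genes that were lower there have unrelated functions. PIK3CD, described above, was one, SRM, spermidine synthase, had 3909 counts in clone 47 and 10175 in untransfected cells, MFN2, which fuses mitochondria, had 1473 counts in clone 47 and 3728 in untransfected cells, and YBX1, an RNA-binding protein, had 23259 counts in clone 47 and 54864 in untransfected cells. NECAP2, an endocytic adaptor, had 1895 counts in clone 47 and 7588 in untransfected cells. CDC42, SLC2A1 and PPIH, described above, also lie on it. MTOR itself was at 0.858 times the untransfected level and ENO1, an enolase, at 0.552 times. Without this chromosome B cell receptor signalling had 10 lower genes and a median log2 ratio of -0.56.

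**Figure D5:**
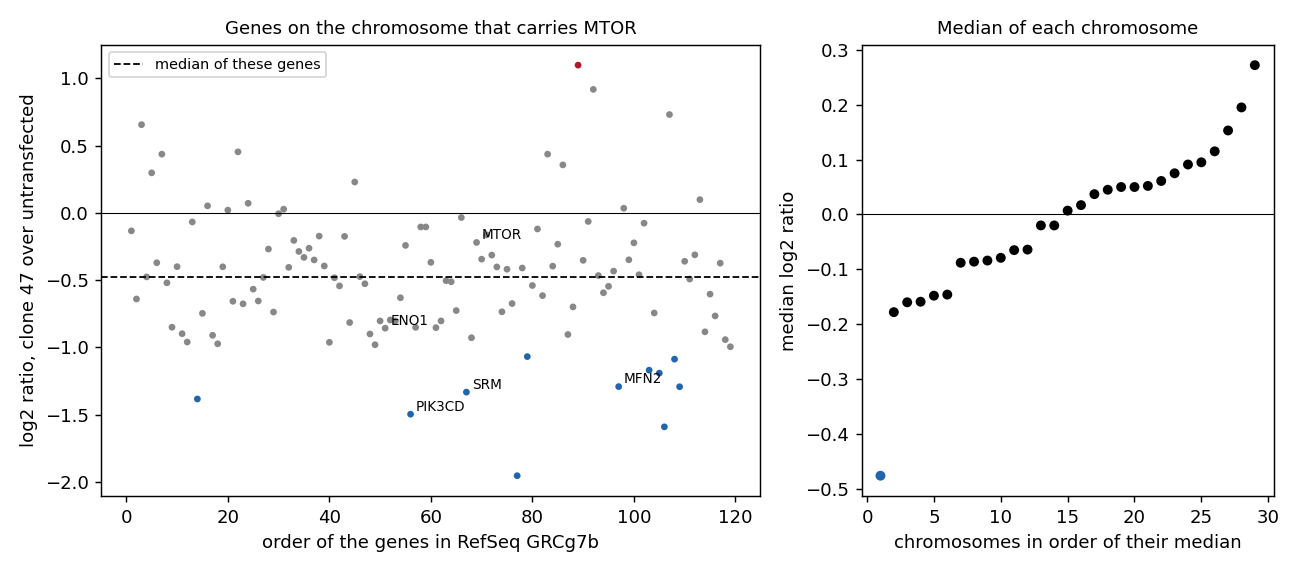
Left, the log2 ratio of clone 47 over untransfected cells for the 119 genes that averaged at least 5 CPM on the chromosome of MTOR, in the order of the annotation, with blue and red for genes at least 2-fold lower and higher in clone 47 and a dashed line at their median of -0.48. Right, the median log2 ratio of each of 29 chromosomes in ascending order, in which that chromosome (blue) lies below the next lowest at -0.18.

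Elsewhere, calls also came in short runs of neighbouring genes. There were 25 runs of at least 3 neighbouring genes apart in the same direction, 14 higher and 11 lower. Genes not measured or not found by symbol were passed over, so the members of a run need not be adjacent. Whether the number of runs exceeds what the share of genes apart would give was not tested. The leukocyte receptor genes CYSLTR1, P2RY10 and GPR174 made up a lower run, as did KCNIP1, KCNMB1 and LCP2, and GPR132, JAG2 and NUDT14. Higher runs included DNAI2, BTBD17, GPR142 and GPRC5C, and GAD2, MYO3A, GPR158 and THNSL1. Neighbouring genes could thus be counted together in the same group above, as P2RY10 and GPR174 among G protein-coupled receptors, or in different groups.

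By log2(FPKM + 0.1), 708 of the 10125 genes (6.99%) were higher by 2-fold or more, and 604 (5.97%) were lower. Of the 957 higher genes with an FPKM value, 638 (66.7%) were also at least 2-fold higher by FPKM, 941 were on the same side and 15 on the opposite one. Of the 767 lower genes, 526 (68.6%) were also at least 2-fold lower, 760 were on the same side and 6 on the opposite one. Across the 10125 genes, Pearson's r of the log2 ratios was 0.88 and Spearman's coefficient 0.95, as a description of 2 tables made from the same reads. A few genes were far apart. CFAP36, a ciliary protein, had 38 counts in clone 47 and 1238 in untransfected cells, but its FPKM was 20.9 in clone 47 and 29.2 in untransfected cells. PAPSS2, which makes the sulfate donor of the cell, had 87 counts in clone 47 and 352 in untransfected cells, but 5.57 FPKM in clone 47 and 3.76 FPKM in untransfected cells, the opposite direction. ARHGAP27 had 1354 counts in clone 47 and 2107 in untransfected cells, but 2.23 FPKM in clone 47 and 0.511 FPKM in untransfected cells, and NACC2 was on opposite sides too, with a log2 ratio of 0.40 by counts and -1.65 by FPKM. For MYLK2 the 2 tables shared the direction, with a log2 ratio of 5.89 by counts and 3.92 by FPKM.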

How the data were processed

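RNA of clone 47 and of untransfected cells was measured by mRNA sequencing, 1 library each, as 75 base paired ends with a strand-specific kit and 10 cycles of PCR, per the labels' protocols. The submitters' processing notes name the build galGal4 and the tools Cufflinks 2.2.1, Cuffdiff, TopHat, TopHat2 and Bowtie. The deposited count per gene is a whole number that the authors' cover sheet calls an absolute read count; its counting tool, annotation and strand setting are unstated there. Deposited FPKM values are normalised by length and library size by the authors, and no further scaling by them is stated. FPKM of a low gene can be 0 where counts are not.

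From the counts, genes with at least 10 counts in either library were scaled by TMM over the 2 libraries (edgeR 4.0.16 in R 4.3.3; factors 1.02 for clone 47 and 0.981 for untransfected). Log2 ratios of CPM used a prior count of 2, so they understate the ratio of low genes. Ratios in the text without a log are plain CPM ratios with exact conditional binomial intervals. At least 2-fold apart means a log2 ratio of at least 1 in size. No test was run. FPKM ratios are on log2(FPKM + 0.1). The log2 ratio, the interval and the 2-fold call were tried on simulated counts with known folds and counting error only. TMM scaling, FPKM, gene lists and neighbours were not part of that trial. Python 3.11.15 and scipy 1.17.1 were used.

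The comparison, the 54 gene lists and the 51 symbol families were chosen with earlier results of these data known, so their counts describe and support nothing. After the files were read, 8 symbols were matched by hand to older names and family patterns that caught unrelated symbols were corrected. Named genes are SRSF1, the 12 largest ratios per direction at 5 CPM or more that FPKM also puts at least 2-fold apart, up to 5 genes of a list at least 2-fold apart, the 5 largest differences in CPM per direction, the 5 largest disagreements of counts and FPKM, 8 genes per direction with at most 3 counts in one library, and members that a described role needs. A further few, such as the runs of neighbours, were chosen after their values were seen. Neighbours come from the RefSeq annotation of GRCg7b, whose chromosomes and start positions gave the order of the genes. Its assembly differs from galGal4, and distances between genes were not used. No sequences were used here. Some genes that the rule takes are left out of the text.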

Additional observations from a re-analysis of the deposited data

How the results depend on the processing

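The counts of genes apart moved by over 1.5 times under 3 settings. On log2(FPKM + 1) 571 genes were at least 2-fold apart (285 higher, 286 lower). At least 4-fold apart were 455 (274 higher, 181 lower). Among genes that averaged at least 5 CPM, a limit chosen after seeing the data, 692 were at least 2-fold apart (352 higher, 340 lower). Under total-count scaling, median-of-ratios scaling, TMM over all 3 libraries of the study, prior counts of 0.5 and 5, a minimum of 50 counts, no minimum, log2(FPKM + 0.1), and without the chromosome of MTOR (added after seeing the data), the number lay between 1234 and 2173. Total-count scaling shifted the median over all genes by 0.06 and gave 1038 higher and 694 lower genes. The log2 ratio of SRSF1 was 2.16 on log2(FPKM + 0.1), against 2.06 by counts. Directions reversed on log2(FPKM + 0.1) and log2(FPKM + 1) for NOD1, at -0.27 and -0.15, and PAPSS2, at 0.56 (0.555) and 0.47 (0.465); the cause was not tested. Of 105 list medians, 15 changed sign under total-count scaling (largest size by the main scaling 0.056), 2 under median-of-ratios scaling (0.0054), 5 with a minimum of 50 counts (0.516) and 6 on each FPKM scale (0.25). Without the chromosome of MTOR the medians of translation factors and of ephrins and Eph receptors changed sign. No paired analysis was possible because each group has 1 library and the labels give no replicate numbers, and for the same reason no library could be left out and no count model fitted. The search of promoters for motifs was not run, since no promoter sequences were used here.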

Other observations

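Of 56 kinesin and dynein genes 11 were higher and 2 lower, and 4 of the 41 that averaged at least 5 CPM were higher with 0 lower. KIF27, a kinesin of the motile cilium, had 1367 counts in clone 47 and 625 in untransfected cells, DNAH3, an axonemal dynein heavy chain, had 1272 counts in clone 47 and 636 in untransfected cells, and DNAI2, an axonemal dynein intermediate chain, had 184 counts in clone 47 and 46 in untransfected cells. Over the 104 genes of cilium and flagellum 10 were higher and 7 lower, shares of 9.62% and 6.73%, close to the 9.56% and 7.60% of all genes. At a mean of at least 5 CPM, 1 of 77 was higher and 1 lower. At that level 4.43% of all genes were higher and 4.28% lower. BBS2, of the BBSome that carries cargo in cilia, had 2909 counts in clone 47 and 1296 in untransfected cells, whereas TEKT1, tektin 1, had 55 counts in clone 47 and 234 in untransfected cells. The tubulins and microtubule proteins went both ways, with TTLL12 at 7853 counts in clone 47 and 3747 in untransfected cells and TUBG1, gamma-tubulin, at 2930 counts in clone 47 and 7784 in untransfected cells.

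Of 74 SNARE and sorting nexin genes 10 were lower and 4 higher, 50 had a log2 ratio under 0, and the median was -0.35. SNX12 had 5989 counts in clone 47 and 13479 in untransfected cells and SNX11 had 2917 counts in clone 47 and 6560 in untransfected cells, while VPS51, of a tethering complex at the Golgi, had 3104 counts in clone 47 and 1177 in untransfected cells. Of 52 RAB GTPases 5 were higher and 5 lower, with a median of 0.005. Annexins and S100 genes were higher in 3 of 9 and lower in 1, and ANXA6, annexin A6, had 18960 counts in clone 47 and 9583 in untransfected cells. Mitochondrial ribosomal protein genes, 59 in number, had a median log2 ratio of -0.02, with MRPL39, MRPL46 and MRPL51 higher and MRPL47 lower. The median log2 ratio was 0.03 in the fifth of genes with the shortest implied length (count over FPKM), and -0.003 in the fifth with the longest.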
